A study of Mus musculus with 45 samples.

Results

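The expression of 10 genes of fibroblasts, myofibroblasts and pericytes was followed across primary tumors, implanted scaffolds, lungs and spleens of mice bearing breast tumors of graded invasiveness. The genes were Acta2, Pdgfra, Pdgfrb, Fap, Postn, Pi16, Dpt, Lum, Dcn and Fn1. They were chosen by name, with earlier results of these data known, and they are 10 of the 55367 gene symbols in the count table. All 10 passed the filter on low counts and were tested in every comparison.

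The samples came from female Balb/c mice that were 7 to 8 weeks old when a porous polycaprolactone scaffold was placed under the skin, and that were inoculated 2 weeks later in the fourth right mammary fat pad with 2000000 cells in 50 uL. The cells were 67NR (nonmetastatic), 4T07 (invasive but not metastatic) or 4T1 (metastatic), sister lines derived from a single spontaneous mammary tumor of a BALB/cfC3H mouse, so each tumor group rests on 1 cell line. Control mice, labelled with no cell line, carried a scaffold and provided scaffolds, lungs and spleens. Tissues were taken on day 14 with 3 samples in each of 15 groups, 45 in all, and the labels do not link tissues of one mouse. Levels are given as CPM, the count of a gene scaled to a library total of 1e6. The libraries are 3' tag libraries, in which a transcript gives a tag near its end whatever its length.

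Fibroblasts make and organize the collagen-rich matrix of connective tissue, and pericytes and smooth muscle cells wrap the walls of vessels. When a tissue is injured or invaded by a carcinoma, resident fibroblasts and mural cells can take on a contractile, matrix-producing state, the myofibroblast or cancer-associated fibroblast. Single-cell atlases describe a resting fibroblast state of the adventitia, marked by Pi16 and Dpt, that is shared by many tissues. The 10 genes cover these states. Acta2 encodes smooth muscle actin, the actin of contractile cells. Pdgfra and Pdgfrb encode the receptors for platelet-derived growth factors, the first used as a general marker of fibroblasts and the second of pericytes and fibroblasts. Fap encodes a surface protease of activated fibroblasts. Postn and Fn1 encode periostin and fibronectin, matrix proteins that bind integrins. Lum and Dcn encode lumican and decorin, small leucine-rich proteoglycans that coat collagen fibrils, and Dpt encodes dermatopontin, which binds decorin. Pi16 encodes a secreted or membrane-anchored peptidase inhibitor family member.

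The bases just before the transcription start are shown for the genes on which the results below turn. These are Acta2, Postn, Pi16 and Dpt. Acta2 and Postn were both higher in 4T1 than in 4T07 tumors. In 4T1 lungs and in 4T1 spleens, Pi16 was higher and Dpt lower than in control mice. The difference of Dpt in the lungs was under 2-fold. The sequences are from RefSeq, build GRCm38.p6, which held a window for 5 of the 10 genes (Acta2, Pdgfra, Postn, Pi16 and Dpt). Each run holds the 250 bases before the start, written 5′ to 3′ on the strand of the gene, with motif matches in capitals. For Postn, the second of 2 annotated starts is shown, because its window held a motif match and that of the first held none.
Acta2, chr19:34255374-34255623, minus strand: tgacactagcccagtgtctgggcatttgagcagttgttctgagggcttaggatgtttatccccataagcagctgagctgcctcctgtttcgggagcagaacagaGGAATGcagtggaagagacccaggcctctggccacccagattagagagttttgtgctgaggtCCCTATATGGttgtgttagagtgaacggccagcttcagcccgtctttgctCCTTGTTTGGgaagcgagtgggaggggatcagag
Postn, chr3:54360857-54361106, plus strand: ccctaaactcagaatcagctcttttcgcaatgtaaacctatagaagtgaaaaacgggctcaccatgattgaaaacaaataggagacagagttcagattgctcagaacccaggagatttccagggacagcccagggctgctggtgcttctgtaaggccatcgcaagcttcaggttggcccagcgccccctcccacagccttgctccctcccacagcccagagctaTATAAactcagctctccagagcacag
Pi16, chr17:29318632-29318881, plus strand: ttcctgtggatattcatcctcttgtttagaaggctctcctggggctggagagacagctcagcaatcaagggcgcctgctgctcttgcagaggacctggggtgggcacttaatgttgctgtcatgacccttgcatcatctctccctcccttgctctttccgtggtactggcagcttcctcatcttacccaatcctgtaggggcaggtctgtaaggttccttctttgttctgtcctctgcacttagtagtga
Dpt, chr1:164796413-164796662, plus strand: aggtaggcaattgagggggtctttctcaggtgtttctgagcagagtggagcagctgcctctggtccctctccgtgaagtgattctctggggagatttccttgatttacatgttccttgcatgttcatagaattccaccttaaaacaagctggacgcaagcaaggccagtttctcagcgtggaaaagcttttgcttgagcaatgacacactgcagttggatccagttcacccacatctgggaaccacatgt

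Capitals in the Acta2 run mark 2 CArG boxes, the site type of serum response factor, allowing at most 1 G or C in the core, and 1 GGAATG. The CArG boxes began 84 and 34 bases before the start. In the Postn run they mark TATAA, which began 26 bases before the start on the strand of the gene. The windows of Pi16, Dpt and Pdgfra held none of the 3 motifs. Of the 32841 RefSeq windows of the same length, 8.59% held such a CArG box, 12.6% held GGAATG on either strand and 3.52% held TATAA starting 20 to 40 bases before the start on the strand of the gene. For Postn, the share of 3.52% makes no allowance for showing the 1 of 2 starts that held the match. A match of letters is a description and not evidence of binding.

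Before the results, 1 group of libraries has to be set apart. The 3 libraries labelled 4T07 lung (25, 26 and 27) carried transcripts of spleen stroma. Tlx1, a transcription factor of spleen mesenchyme, was at 11.1 to 14.6 CPM in them, at 11.9 to 16.7 CPM in the 4T07 spleens, and at or below 1.72 CPM in the other 9 lungs. Nkx2-3, another spleen factor, was at 8.03 to 13.2 CPM in them and at or below 1.72 CPM in the other lungs. Their 6 lung epithelium markers summed to 5935 to 14756 CPM, against 29078 to 38025 CPM in the other lungs, and their 8 endothelium markers to 1143 to 1880 against 3384 to 4108 CPM. Exocrine pancreas markers summed to 206 to 291 CPM in these libraries and to at most 11.3 CPM in the other lungs. Of the 10 genes followed here, 7 were lower in all 3 of these libraries than in every other lung, and 6 of those lay between the 4T07 spleens and the other lungs. The share of all genes with such an order was not counted, so these counts are a description. Against control lungs, 13.7% of all genes tested were called lower in these libraries. Each result that rests on these libraries is therefore given as one on the libraries labelled 4T07 lung, and the part that spleen-type RNA plays in it was not tested. Tlx1 also reached 4.65 CPM (38 counts) in 1 4T07 scaffold and 4.42 CPM (22 counts) in 1 4T07 tumor, with group medians of 0.466 and 0.726 CPM. Nkx2-3 reached 2.32 CPM (19 counts) in the 4T07 scaffolds and 0.803 CPM (4 counts) in the 4T07 tumors. The part of such transcripts in the scaffold and tumor results was not tested.

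**Figure D1:**
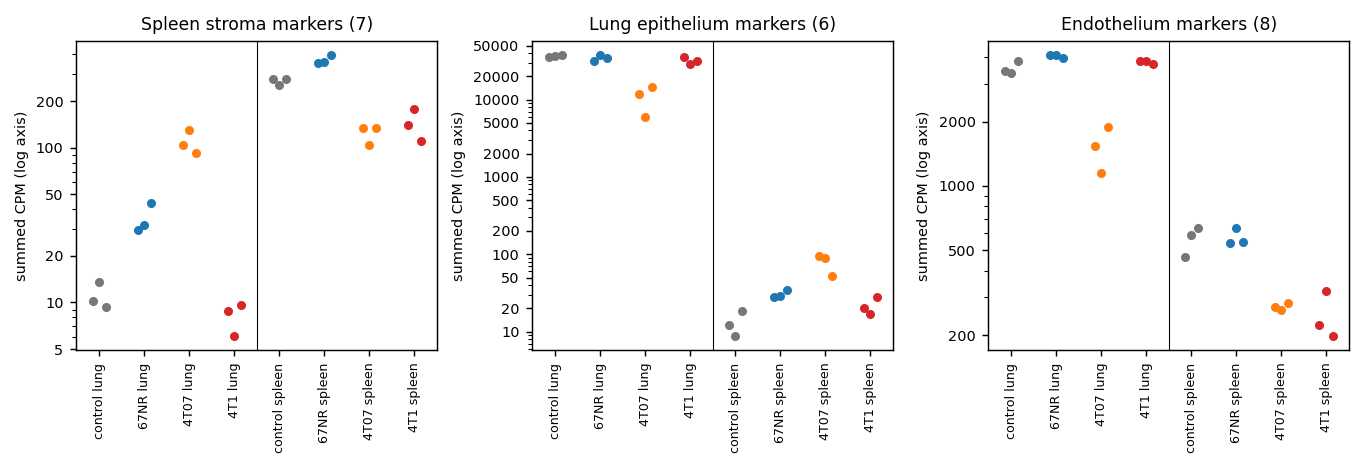
Summed CPM (log axis) of the markers of spleen stroma, lung epithelium and endothelium in each lung and spleen library, with 3 points per group. The 3 libraries labelled 4T07 lung sit at 92.2 to 131 CPM for spleen stroma, between the other lungs and the control spleens. This range overlaps that of the 4T07 spleens (105 to 135 CPM). For lung epithelium the 3 libraries sit at 5935 to 14756 CPM, below the other lungs.

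Library totals ran from 3542368 to 5511691 counts in tumors, 4767440 to 8175380 in scaffolds, 4609634 to 7081417 in lungs and 3491888 to 5794832 in spleens. The detection floor was set at 3 counts, which was worth 0.367 to 0.859 CPM. Lung epithelium markers summed to 8.77 to 96.4 CPM in the spleens, the upper part of this range in the 4T07 spleens. Exocrine pancreas markers in spleens reached 391 CPM in 1 control library and 2287 CPM in 1 4T1 library. In these bulk samples, fewer cells of a type and less RNA per cell cannot be told apart, and in the tumors the transcripts of injected cells and of host stroma cannot be told apart.

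The first comparison asked where the genes were expressed in mice without a tumor. Lum, Dcn, Fap, Fn1, Pi16 and Dpt were highest in the control scaffolds and lowest in the control spleens. Lum stood at 138, 151 and 235 CPM in the control scaffolds, at 5.58, 9.38 and 6.31 CPM in the control lungs and at 1.55, 2.08 and 3.23 CPM in the control spleens. Dcn stood at 988, 1066 and 1279 CPM in the scaffolds, 178, 217 and 217 CPM in the lungs, and 56.3, 95.8 and 87.3 CPM in the spleens. The 3 tissues did not overlap for either proteoglycan. Fap stood at 21.8, 28.7 and 32.9 CPM in the scaffolds, at 0.872, 1.08 and 1.46 CPM (5 to 9 counts) in the lungs, and at 0.583 to 0.862 CPM (3 or 4 counts) in the spleens, the last close to the limit of detection. Fn1 stood at 1487, 1663 and 1687 CPM in the scaffolds, 830.5, 665 and 705 CPM in the lungs and 64.7, 91.1 and 87.5 CPM in the spleens. In the same order of tissues, Pi16 ran from 61.7 to 69.4, 15.5 to 20.1 and 3.50 to 4.96 CPM. Dpt ran from 249 to 275, 173 to 179 and 21.6 to 42.7 CPM.

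A gene was called changed when its fold change was above 2 and its edgeR adjusted p was under 0.10 (under 0.05 between tumors). Between control scaffolds and control lungs, 5 of the 10 genes were called higher in the scaffold and none lower, where 12.6% of the 27656 genes tested were called higher and 14.2% lower. They were Lum, which was 29.2-fold higher (log2 fold change 4.87 ± 0.33, SE, adjusted p = 2.03e-16), Fap (4.82 ± 0.31), Dcn (2.70 ± 0.25), Pi16 (2.13 ± 0.23) and Fn1 (1.38 ± 0.19). Postn and Pdgfrb overlapped between these tissues, with log2 fold changes of 0.23 ± 0.22 and -0.08 ± 0.23 and adjusted p-values of 0.451 and 0.858. Pdgfra had a log2 fold change of -0.63 ± 0.22, toward the lung, short of the fold threshold. Against control spleens, 9 genes were called higher in the scaffold (background 14.1% called higher) and 8 were called higher in the lung (background 16.4%). The exception in both was Acta2, with 61.0, 57.7 and 52.0 CPM in the control spleens, 44.3, 60.8 and 62.0 CPM in the control lungs and 85.2, 73.6 and 94.0 CPM in the control scaffolds. In the lung, Fap was the other, and its ratio to the spleen was 1.62 from 20 against 10 counts, with a 95% interval for counting error of 0.723 to 3.87. Pdgfrb against the control spleens was 2.14-fold higher in the scaffold, with 1 control scaffold at 60.4 CPM below the highest spleen at 61.9 CPM, and the call ended without control scaffold 3, without control spleen 9, and without scaling factors.

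Lists of related stromal genes were counted in the same way. Of 18 markers of activated fibroblasts, 14 were higher and 1 was lower in control scaffolds than in control lungs, with a median log2 fold change of 2.49 beside a median of 0.04 over all genes. Thbs2, which encodes the matrix protein thrombospondin 2, averaged 193 CPM in the scaffolds and 2.41 CPM in the lungs. Of 16 mural cell markers, 2 were higher in the scaffold (background 12.6%) and 7 were higher in the lung (background 14.2%), where the pericyte gene Higd1b averaged 239 CPM against 6.48 CPM. Of 15 genes of resident fibroblast identity, 7 were higher in the scaffold and 6 in the lung. Npnt, the integrin ligand nephronectin of alveolar fibroblasts and epithelium, was among the latter with 559 against 5.76 CPM. Itga8, an integrin subunit that binds fibronectin, averaged 152 CPM in the lungs and 0.841 CPM in the scaffolds. By summed level the lists did not share a direction, since activated fibroblast markers reached 4118 to 5084 CPM in the scaffolds and 2610 to 3105 CPM in the lungs, while the 14 adventitial markers reached 2099.9 to 2394 CPM in the scaffolds and 3705 to 3811 CPM in the lungs. Resident fibroblast genes summed to 703 to 806 CPM in the scaffolds and 1418 to 1870.0 CPM in the lungs.

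**Figure D2:**
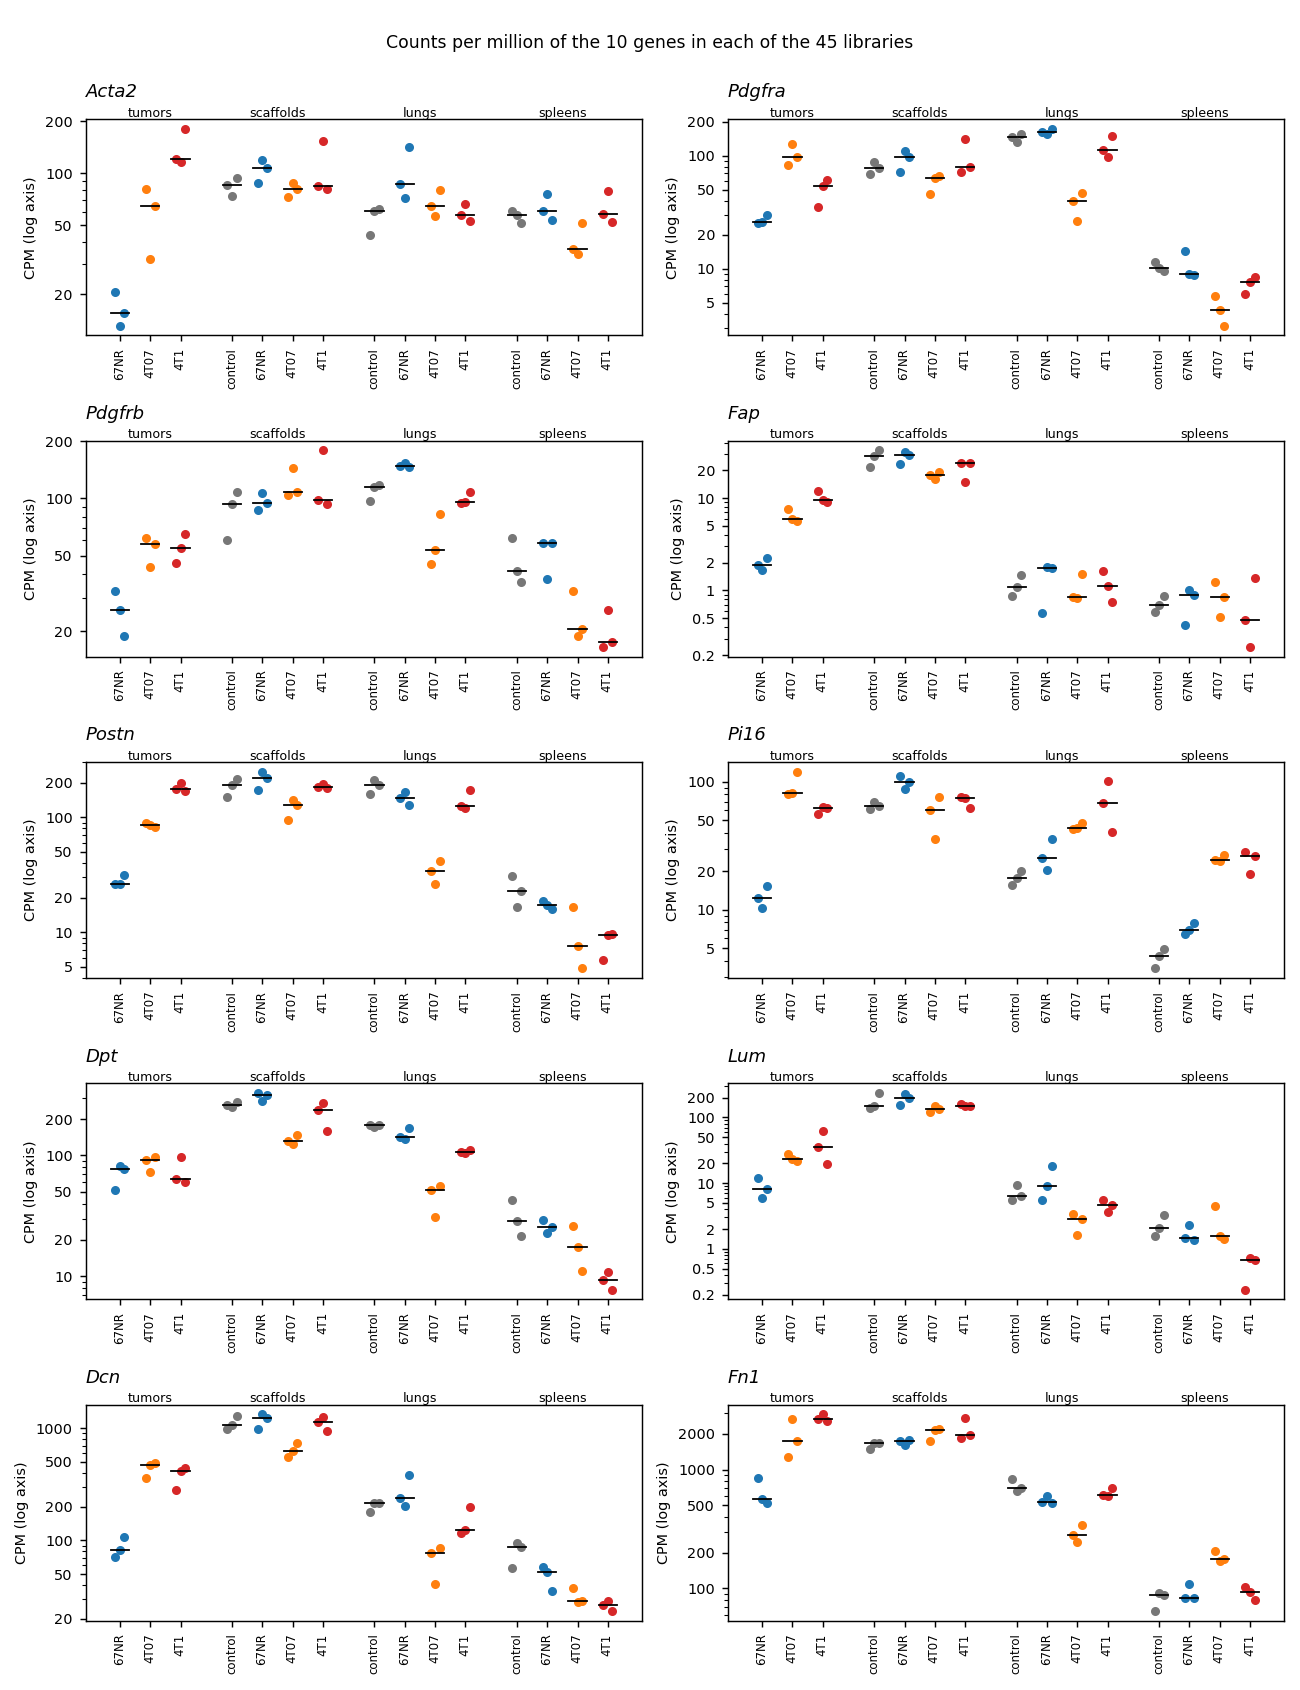
CPM (log axis) of each gene in each of the 45 libraries, by tissue and by tumor line, with 1 point per library and a bar at the median of 3. Scaffolds are highest for Fap, Lum and Dcn in all 4 groups, and 67NR tumors lie below the other tumors for 9 of the 10 genes. Against the same tissue of control mice, Pi16 is higher in 4T1 lungs, in 4T07 and 4T1 spleens and in the libraries labelled 4T07 lung.

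The order of the 15 groups differed among the genes. The 4 scaffold groups held the highest mean levels of Fap, Lum and Dcn, and the next group, 4T1 tumors for Fap and Lum and 4T07 tumors for Dcn, did not overlap the lowest scaffold group. For Dpt, the 67NR scaffolds (280.0 to 328 CPM) stood above the control scaffolds (249 to 275 CPM) without overlap. For Fn1 the 4T1 tumors ranked highest (2565 to 2912 CPM), followed by the 4 scaffold groups and the 4T07 tumors, and each of these 6 overlapped the next in order except the lowest, the control scaffolds, which lay above the control lungs. For Pdgfra the 67NR lungs ranked highest (156 to 172 CPM), above the control lungs (133 to 155 CPM) and without overlap. For Acta2 every group overlapped the next in order except at the bottom, where the 67NR tumors (13.1 to 20.7 CPM) lay below the 4T07 spleens (34.0 to 51.5 CPM). The 4T1 spleens held the lowest mean of Fap, Postn, Dpt, Lum, Dcn and Pdgfrb, the 4T07 spleens that of Pdgfra, the control spleens those of Pi16 and Fn1, and the 67NR tumors that of Acta2.

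In the primary tumors, the fibroblast genes set 67NR apart from both invasive lines. Between 4T07 and 67NR tumors 8 of the 10 genes were called higher and none lower, where 17.1% of 20508 genes were called higher and 11.8% lower. Between 4T1 and 67NR tumors 7 were called higher and none lower, where 11.6% were called higher and 9.07% lower. In each of these comparisons 9 of the 10 genes had samples that did not overlap, all higher in the invasive line (background 35% and 31.2% higher without overlap). The comparisons share the 67NR tumors. Dpt was the exception in both.

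Acta2, the contractile gene, stood at 20.7, 13.1 and 15.5 CPM in 67NR tumors, 81.7, 32.1 and 65.2 CPM in 4T07 tumors and 122, 116 and 181 CPM in 4T1 tumors. The 3 groups did not overlap. Its level was 3.05-fold higher in 4T07 than in 67NR tumors (log2 fold change 1.61 ± 0.31, adjusted p = 6.58e-04), 7.41-fold higher in 4T1 than in 67NR tumors (2.89 ± 0.31, adjusted p = 4.18e-06) and, of the invasive lines, 2.43-fold higher in 4T1 (1.28 ± 0.28, adjusted p = 0.00586). Without 4T07 tumor 32, which had the lowest of the 4T07 values, the last of these calls ended.

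Of the 2 receptors, Pdgfra separated the invasive lines without overlap and Pdgfrb did not. Pdgfra stood at 25.5, 25.7 and 29.6 CPM in 67NR tumors, 83.5, 127 and 96.5 CPM in 4T07 tumors and 35.1, 54.5 and 61.5 CPM in 4T1 tumors. The 4T07 tumors were above all others, and the 4T1 tumors lay between them and the 67NR tumors. Pdgfra was 3.19-fold higher in 4T07 than in 67NR tumors (log2 fold change 1.67 ± 0.23, adjusted p = 3.37e-05), while its log2 fold change of -0.97 ± 0.21 in 4T1 against 4T07 tumors (adjusted p = 0.00654) was just short of the fold threshold. Pdgfrb stood at 32.5, 25.7 and 18.9 CPM in 67NR, 62.0, 43.7 and 57.6 CPM in 4T07 and 45.7, 54.9 and 64.8 CPM in 4T1 tumors. Both invasive groups were above 67NR without overlap, at folds of 1.78 and 1.87 that did not reach 2 (adjusted p = 0.00676 and 0.0052). Among the 4 ligands of these receptors, Pdgfc was called higher in 4T07 (53.3 CPM on average) and 4T1 tumors (91.2 CPM) than in 67NR tumors (13.4 CPM). Pdgfb was called higher in 4T1 tumors (31.4 CPM) than in 67NR (9.80 CPM) and 4T07 tumors (13.1 CPM).

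Fap and Postn, both used as markers of activated fibroblasts, were lowest in 67NR and highest in 4T1 tumors. Fap stood at 1.88, 1.68 and 2.26 CPM in 67NR, 7.63, 5.99 and 5.64 CPM in 4T07 and 12.1, 9.63 and 9.07 CPM in 4T1 tumors. Postn stood at 26.1, 26.3 and 31.6 CPM in 67NR, 89.3, 86.2 and 83.0 CPM in 4T07 and 177, 199 and 169.9 CPM in 4T1 tumors. No group overlapped another for either gene. Postn was 2.59-fold higher in 4T07 than in 67NR tumors (log2 fold change 1.37 ± 0.16, adjusted p = 8.02e-06) and 4T1 exceeded 4T07 tumors 2.18-fold (1.13 ± 0.15, adjusted p = 1.28e-04). For Fap the 4T07 against 67NR difference was called (1.47 ± 0.34, adjusted p = 0.00273) and that between 4T1 and 4T07 was not (0.72 ± 0.27, adjusted p = 0.0871).

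The proteoglycans and fibronectin were called higher in both invasive lines than in 67NR, and were not called between the invasive lines. In 67NR tumors Dcn stood at 71.2, 82.8 and 108 CPM, against 361, 467 and 493 CPM for the 4T07 line and 283, 419 and 440.3 CPM for the 4T1 line. Between 4T1 and 4T07 tumors the log2 fold change of Dcn was -0.16 ± 0.21 (adjusted p = 0.658). Lum stood at 11.8, 5.87 and 8.19 CPM in 67NR, 27.9, 23.2 and 21.7 CPM in 4T07 and 35.7, 61.1 and 19.4 CPM in 4T1 tumors, with the widest spread among the 4T1 tumors. Fn1 stood at 845, 565 and 527 CPM in 67NR, 1285, 2665 and 1729.7 CPM in 4T07 and 2678, 2912 and 2565 CPM in 4T1 tumors. Its fold over 67NR was 2.48 in 4T07 tumors (adjusted p = 6.08e-04) and 3.68 in 4T1 tumors (adjusted p = 3.62e-05), and the first of these calls ended without 4T07 tumor 32. The Lum call of 4T07 against 67NR (2.37-fold, adjusted p = 0.0102) ended without 67NR tumor 20.

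Pi16 and Dpt, paired in atlases as markers of one fibroblast state, went different ways in the tumors. Pi16 stood at 12.4, 10.4 and 15.2 CPM in 67NR tumors, 79.9, 81.5 and 119.7 CPM in 4T07 tumors and 56.1, 63.5 and 62.4 CPM in 4T1 tumors. It was 6.23-fold higher in 4T07 than in 67NR tumors (log2 fold change 2.64 ± 0.22, adjusted p = 3.35e-07) and 4.18-fold higher in 4T1 than in 67NR tumors (2.06 ± 0.22, adjusted p = 3.70e-06). Its level in 4T1 tumors was below that in 4T07 tumors in every sample, at a log2 fold change of -0.58 ± 0.19 that was not called (adjusted p = 0.0567). Dpt stood at 51.9, 81.4 and 76.8 CPM in 67NR, 91.3, 73.1 and 96.5 CPM in 4T07 and 64.0, 97.8 and 60.2 CPM in 4T1 tumors. The 3 groups overlapped, and the log2 fold changes of Dpt lay between -0.19 ± 0.22 and 0.06 ± 0.22.

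**Figure D3:**
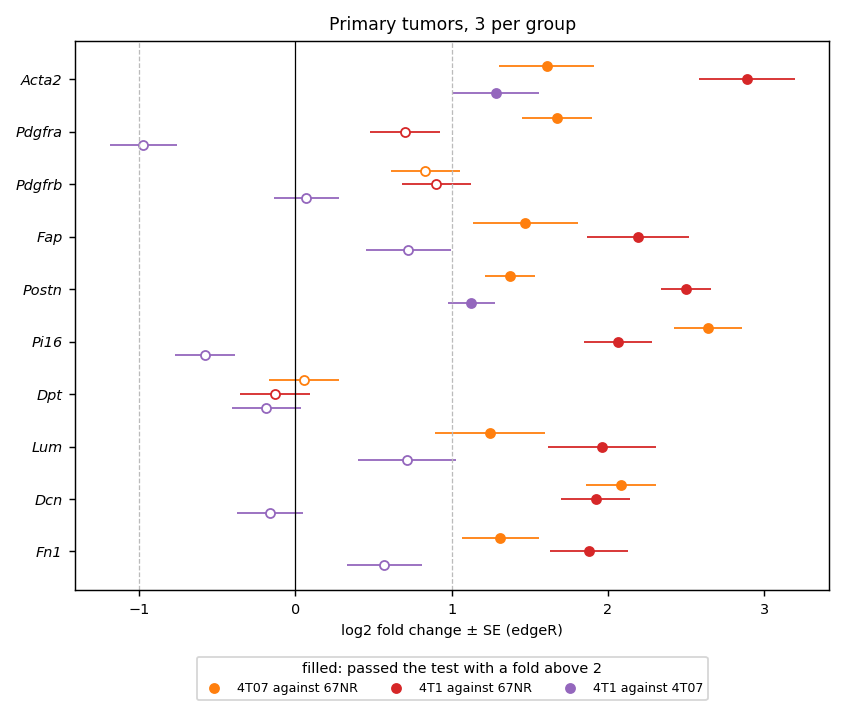
Log2 fold change ± SE (edgeR) of each gene in the 3 comparisons of primary tumors, 3 samples per group, with filled points where the adjusted p was under 0.05 and the fold above 2. Against 67NR tumors 8 genes pass in 4T07 and 7 in 4T1 tumors, and Acta2 and Postn are the genes that pass between 4T1 and 4T07 tumors.

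Between 4T1 and 4T07 tumors 2 of the 10 genes, Acta2 and Postn, were called, both higher in 4T1, where 3.82% of genes were called higher and 4.79% lower. The count ran from 1 without 4T07 tumor 32 to 4 without 4T1 tumor 45.

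The other stromal lists moved to different degrees. Of the 18 activated fibroblast markers, 13 were higher and none lower in 4T07 than in 67NR tumors (median log2 fold change 2.98, against 0.16 over all genes), while the 4T1 tumors had 14 higher and none lower (median 3.41, against 0.09). Inhba, which encodes a subunit of activin, averaged 4.44 CPM in 67NR tumors, while 4T07 tumors had 236 CPM and 4T1 tumors 401 CPM. Ccn2, connective tissue growth factor, averaged 2.06, 115 and 109 CPM. Between the invasive lines, 3 of the 18 were higher in 4T1 tumors, where 3.82% of all genes were called higher. They were Lrrc15 (55.9 against 14.7 CPM), Tnc, which encodes tenascin C (275 against 73.2 CPM), and Cthrc1 (36.3 against 16.7 CPM). Of the 16 mural cell markers, 2 were higher and 3 lower in 4T07 than in 67NR tumors (median -0.17, background 17.1% higher and 11.8% lower), while against 67NR the 4T1 tumors had 3 higher and 1 lower (median 0.30, background 11.6% and 9.07%). Mylk, the smooth muscle myosin kinase, was the lower one, at 43.1 against 126 CPM.

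Markers of other cell types moved with these groups. The 8 epithelial and carcinoma markers summed to 24.3 to 36.9 CPM in 67NR tumors, 170.2 to 240.2 CPM in 4T07 tumors and 1174 to 1283 CPM in 4T1 tumors. The 8 leukocyte markers summed to 618 to 925, 1522 to 4989.6 and 1119.8 to 1348 CPM in the same order. The 8 endothelium markers overlapped, at 252 to 382, 247 to 413 and 256 to 272 CPM. The part of the first 2 in the tumor results was not tested.

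Each tumor was then set against the scaffold of mice with the same line. All 10 genes were called lower in 67NR tumors than in 67NR scaffolds (background 18.2% called lower), 3 were called lower in 4T07 tumors than in 4T07 scaffolds (9.7%) and 6 in 4T1 tumors than in 4T1 scaffolds (12.2%), and none was called higher. Lum and Fap had the largest of these differences in 67NR tumors, at log2 fold changes of -4.48 ± 0.33 and -3.83 ± 0.31. Lum, Fap and Pdgfrb were called lower in the tumor with all 3 lines. In 4T07 tumors Pdgfra had a log2 fold change of 0.59 ± 0.22 against the scaffold, without overlap but below the fold threshold. Acta2, Postn and Fn1 overlapped between 4T1 tumors and 4T1 scaffolds, with log2 fold changes of 0.26 ± 0.24, -0.17 ± 0.22 and 0.19 ± 0.19. The 4T1 count was 4 without 4T1 scaffold 35, when Pdgfra and Pdgfrb, both highest of their group in it, were no longer called.

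In the scaffolds, calls among the 10 genes were few. Dpt was called lower in 4T07 scaffolds than in control and in 67NR scaffolds, and no other gene of the 10 was called in any of the 6 comparisons. It stood at 259.7, 249 and 275 CPM in control scaffolds, 328, 280.0 and 314 CPM in 67NR scaffolds, 131, 125 and 148 CPM in 4T07 scaffolds and 236, 273 and 158 CPM in 4T1 scaffolds. The 4T07 scaffolds lay below all 9 others. Dpt was 2.14-fold lower than in control scaffolds (log2 fold change -1.10 ± 0.17, adjusted p = 0.00111), where 3.59% of 22156 genes were called lower, and 2.39-fold lower than in 67NR scaffolds (-1.26 ± 0.17, adjusted p = 9.88e-04), where 3.03% were. In 4T1 against 4T07 scaffolds its log2 fold change was 0.74 ± 0.17 (adjusted p = 0.058), short of the fold threshold. The call against control scaffolds ended when library totals were used without scaling factors.

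Dcn, Postn and Fap also lay below control in the 4T07 scaffolds, at folds under 2. Dcn stood at 557, 619.8 and 742 CPM there, against 988, 1066 and 1279 CPM in control scaffolds and 981, 1324 and 1243 CPM in 67NR scaffolds. The 4T07 scaffolds lay below both other groups, which overlapped. Its log2 fold change against control was -0.93 ± 0.18 (adjusted p = 0.00372), and it was called without 4T07 scaffold 24. Fn1 did not share this direction, at 1744, 2159 and 2211 CPM in 4T07 scaffolds against 1487, 1663 and 1687 CPM in control scaffolds (log2 fold change 0.20 ± 0.18, adjusted p = 0.544). In all, 6 of the 10 genes had samples without overlap between 4T07 and control scaffolds, 5 lower and Fn1 higher (background 11.2% lower and 21.8% higher without overlap). The genes of 67NR and 4T1 scaffolds overlapped those of control scaffolds, apart from Pi16 and Dpt, higher in 67NR (background 8.81% higher without overlap), and Fn1, higher in 4T1 scaffolds (background 11.8%), none of them called. In the 67NR against control comparison 0% of the 22156 genes tested were called by edgeR, and 626 had an unadjusted p under 0.05. In 4T1 scaffolds 0.0226% were called against control and 0.0226% against 67NR scaffolds, and against 4T07 scaffolds 1% were.

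The same scaffolds showed lower levels of other fibroblast genes. Of 14 markers of adventitial fibroblasts, 5 were lower in 4T07 than in control scaffolds (background 3.59% lower) and none was higher (median log2 fold change -0.50, against 0.04 over all genes). Dpp4, a surface peptidase, averaged 4.57 against 12.5 CPM, Sema3c, a secreted guidance protein, 14.3 against 30.1 CPM, and Clec3b, a plasminogen-binding lectin, 280.5 against 558 CPM. None of the 18 activated fibroblast markers was called in this comparison. Adipocyte markers summed to 430.1 to 591 CPM in 4T07 scaffolds, 833 to 1102 CPM in control scaffolds, 644 to 1033 CPM in 67NR scaffolds and 1093 to 1322 CPM in 4T1 scaffolds. Exocrine pancreas markers summed to 8.70 to 59.3 CPM in 4T07 scaffolds and to at most 2.31 CPM in control scaffolds. Leukocyte markers summed to 3473 to 8984 CPM in 4T07 scaffolds and 2334 to 3743 CPM in control scaffolds. The highest of these sums was that of 4T07 scaffold 22, in which S100a8 was at 3966 CPM and Tlx1 at 4.65 CPM (38 counts), against at most 952 and 0.466 CPM in the other 4T07 scaffolds. Without this library the log2 fold change of Dpt against control was -1.06 (edgeR adjusted p = 0.00377). The part of the adipocyte, pancreas and leukocyte transcripts in the Dpt result was not tested.

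**Figure D4:**
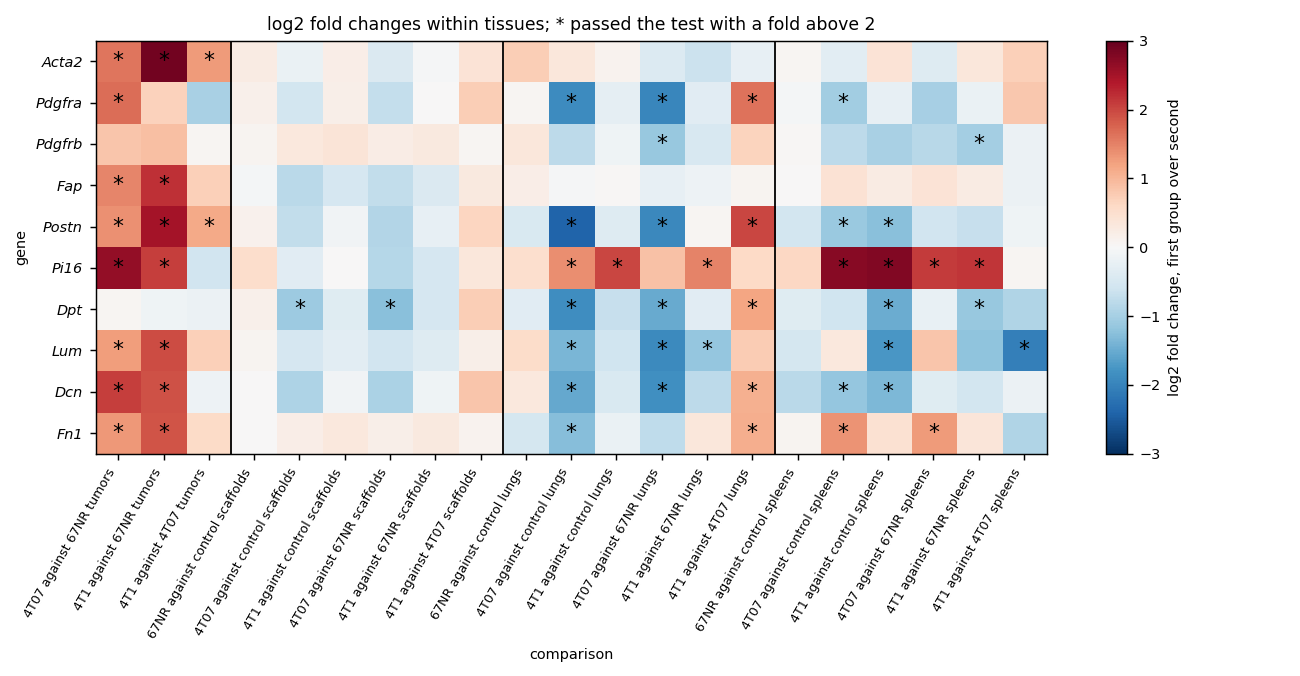
Log2 fold changes (color, first group over second) of the 10 genes in the 21 comparisons within tissues, with an asterisk where the call was made. Tumor comparisons against 67NR are mostly higher, scaffolds hold 2 calls, both of Dpt, and Pi16 is the one gene called higher than control in the 4T1 lungs and in the 4T1 spleens.

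In the lungs, Pi16 was higher with 4T1 tumors than in control mice, and none of the other genes was called between these groups. Pi16 stood at 15.5, 17.7 and 20.1 CPM in control lungs, 25.3, 20.6 and 35.9 CPM in 67NR lungs and 68.6, 101 and 40.6 CPM in 4T1 lungs, and at 42.6, 43.6 and 47.3 CPM in the libraries labelled 4T07 lung. The 4T1 lungs were all above the 67NR lungs, and those above the control lungs. Against control, Pi16 was 3.98-fold higher in 4T1 lungs (log2 fold change 1.99 ± 0.25, adjusted p = 1.38e-05), and it was the 1 gene of the 10 called, where 3.56% of 21937 genes were called higher and 1.05% lower. It was 2.79-fold higher than in 67NR lungs (1.48 ± 0.24, adjusted p = 2.92e-04, background 3.23% higher). Fitted without the libraries labelled 4T07 lung, Pi16 had log2 fold changes of 2.00 against control (edgeR adjusted p = 1.12e-04) and 1.48 against 67NR lungs (0.00107).

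The lungs of mice with 67NR tumors showed no call among the 10 genes, where 4.25% of genes were called. Acta2 was at 87.3, 71.6 and 143 CPM there and at 44.3, 60.8 and 62.0 CPM in control lungs (log2 fold change 0.75 ± 0.20, adjusted p = 0.025, below the fold threshold). The library with 143 CPM also had the highest sum of heart muscle markers, 415 CPM, where the other lungs had at most 108 CPM, and its part was not tested. Fn1 lay lower in 67NR lungs, at 534, 597 and 519 CPM against 830.5, 665 and 705 CPM (-0.52 ± 0.15, adjusted p = 0.0419), below the fold threshold as well.

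Dpt had the clearest difference after Pi16 between 4T1 and control lungs, at 108, 105 and 112 CPM against 179, 173 and 179 CPM. The groups did not overlap, and its log2 fold change of -0.69 ± 0.16 (adjusted p = 0.0103) was short of the fold threshold. Lum was called lower in 4T1 than in 67NR lungs, at 5.47, 3.67 and 4.65 CPM against 5.55, 9.10 and 18.1 CPM (2.22-fold, adjusted p = 0.0432, background 1.8% lower). This call rested on 67NR lung 15, the one with the high heart muscle markers, and on 4T1 lung 38, and it ended without either. Fap was at 3 to 12 counts in the 9 lungs of these groups, too few to compare.

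In the libraries labelled 4T07 lung, 6 genes were called lower than in control lungs, where 13.7% of genes were called lower, and Pi16 was called higher, where 15.3% were. Postn stood at 34.1, 26.2 and 41.9 CPM in them and at 160.2, 209.7 and 191 CPM in control lungs, a 5.25-fold difference (log2 fold change -2.39 ± 0.19, adjusted p = 3.11e-09). Pdgfra, Dpt, Dcn, Lum and Fn1 were the others, with log2 fold changes from -1.89 ± 0.19 to -1.27 ± 0.16. Acta2 was not called, at 64.6, 57.0 and 80.7 CPM. The median log2 fold change of the 10 genes was -1.32, that of the 8 endothelium markers -1.23 and that of the 6 lung epithelium markers -1.32. The median over all genes was -0.01. Of the 7 spleen stroma markers 4 were tested, and all 4 were higher. The filter that decided which were tested summed the counts of all lungs, these libraries included. Against 67NR lungs 6 genes were called lower (background 15.3% lower). In 4T1 lungs 5 genes were called higher than in these libraries (background 11.6% higher), a count that was 2 without 4T07 lung 26 and 3 without 4T1 lung 39. With these 3 libraries left out there is no 4T07 lung group, so none of these 3 comparisons has a value without them. They share the libraries labelled 4T07 lung.

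In the spleens of mice with invasive tumors, Pi16 was called higher than in control spleens and several other fibroblast genes were called lower. Pi16 stood at 3.50, 4.38 and 4.96 CPM in control spleens, 6.49, 6.90 and 7.85 CPM in 67NR spleens, 24.5, 24.0 and 26.9 CPM in 4T07 spleens and 28.3, 19.1 and 26.3 CPM in 4T1 spleens. The control, 67NR and invasive groups did not overlap. Pi16 was 6.60-fold higher in 4T07 spleens (log2 fold change 2.72 ± 0.23, adjusted p = 6.06e-07) and 6.86-fold higher in 4T1 spleens (2.78 ± 0.23, adjusted p = 4.94e-07) than in control spleens. Against 67NR spleens it was 4.26-fold and 4.43-fold higher, and these 4 calls share the control or the 67NR spleens. The 2 invasive groups overlapped (4T1 against 4T07 0.06 ± 0.20, adjusted p = 0.933). In 67NR spleens its log2 fold change against control was 0.63 ± 0.25 (adjusted p = 0.182), which was not called.

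Between 4T07 and control spleens 5 of the 10 genes were called, 2 higher and 3 lower, where 8.26% of 21128 genes were called higher and 10.3% lower. Besides Pi16, the gene called higher was Fn1, at 207, 169 and 177 CPM against 64.7, 91.1 and 87.5 CPM (2.56-fold, adjusted p = 3.71e-05). Fn1 in 4T1 spleens stood at 104, 94.3 and 80.4 CPM, overlapping the control spleens and below all 4T07 spleens (4T1 against 4T07 -0.91 ± 0.17, adjusted p = 0.0111, short of the fold threshold). The genes called lower were Dcn (37.5, 28.5 and 28.9 against 56.3, 95.8 and 87.3 CPM, -1.16 ± 0.22), Postn (16.5, 7.59 and 4.87 against 30.7, 16.6 and 23.1 CPM, -1.11 ± 0.33) and Pdgfra (5.77, 4.31 and 3.15 against 11.5, 10.2 and 9.49 CPM, -1.04 ± 0.28). The count fell to 3 without 4T07 spleen 30 or without control spleen 7, when Pdgfra and Postn were no longer called.

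Between 4T1 and control spleens 5 genes were called, Pi16 higher (background 9.84% higher) and 4 lower (background 10% lower). Dcn stood at 26.4, 28.9 and 23.5 CPM in 4T1 spleens, below every control and 67NR spleen (2.54-fold below control, adjusted p = 2.62e-04). Dpt stood at 9.35, 10.8 and 7.77 CPM in 4T1 spleens, against 42.7, 28.8 and 21.6 CPM in control, 29.3, 22.7 and 25.6 CPM in 67NR and 26.1, 17.6 and 11.2 CPM in 4T07 spleens. The 4T1 spleens were below all others. Dpt was 2.82-fold lower than in control spleens (adjusted p = 0.00105) and 2.19-fold lower than in 67NR spleens (adjusted p = 0.00819). Postn was 2.37-fold lower than in control spleens (adjusted p = 0.0104), a call that ended without control spleen 7. Lum, at 1, 3 and 3 counts in the 4T1 spleens, was at the limit of detection there, and its summed counts, 32 in control and 7 in 4T1 spleens, gave a ratio of 4.09 with a 95% interval for counting error of 1.77 to 11.0, so its calls against control and 4T07 spleens (edgeR adjusted p = 0.0467 and 0.0933) rest on few counts. The first ended without 4T1 spleen 40 or control spleen 9, and the second without any 1 of 10 libraries. Lum was the 1 gene of the 10 called between 4T1 and 4T07 spleens, where 1.5% of genes were called lower.

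Against 67NR spleens, Pi16 and Fn1 were called higher in 4T07 spleens (background 6.5% higher) and none of the 10 lower. In 4T1 against 67NR spleens Pi16 was called higher (background 10.3%) and Pdgfrb and Dpt lower (background 10.4%). Pdgfrb stood at 16.5, 26.0 and 17.6 CPM in 4T1 spleens and at 58.2, 37.8 and 58.1 CPM in 67NR spleens (2.02-fold, adjusted p = 0.00785), and this call, just past a fold of 2, ended without any 1 of 4 libraries. Acta2 was not called in any spleen comparison, and Fap was at 1 to 6 counts in every spleen. Between 67NR and control spleens none of the 10 was called, where 2.26% of genes were.

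Related genes in the spleens were called in both directions, against a background of 8.26% higher and 10.3% lower in 4T07 and of 9.84% higher and 10% lower in 4T1 against control spleens. Of the 15 activated fibroblast markers tested, 2 were higher and 3 lower in 4T07 spleens, and 1 was higher and 2 lower in 4T1 spleens. Inhba, the one higher in both, averaged 3.86 CPM in control, 31.9 CPM in 4T07 and 18.4 CPM in 4T1 spleens. The summed level of the list overlapped between the groups, at 851 to 1293 CPM in control, 1143 to 1669 CPM in 4T07 and 999 to 1177 CPM in 4T1 spleens. Of the 10 fibronectin receptors and assembly genes, 2 (Itga5 and Itgb3) were higher and 1 lower in each comparison. The lower one was Itga8, which averaged 9.97 CPM in control, 1.35 CPM in 4T07 and 2.55 CPM in 4T1 spleens. Of the 16 mural markers, 1 was higher and 4 lower in 4T07 spleens, while none was higher and 3 were lower in 4T1 spleens. The pericyte gene Rgs5 averaged 7.20 CPM in 4T1 and 17.8 CPM in control spleens. Of the 14 adventitial markers, 1 was higher and 4 lower in 4T07 spleens, while none was higher and 2 were lower in 4T1 spleens.

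Markers of other cells changed with the same groups. The 8 leukocyte markers, which include S100a8 and S100a9 of neutrophils, summed to 2478 to 3107 CPM in control, 1896 to 2276 CPM in 67NR, 20529 to 25584 CPM in 4T07 and 11767 to 28391 CPM in 4T1 spleens. In lungs they summed to 531 to 628 CPM in control, 452 to 505 CPM in 67NR and 11295 to 25782 CPM in 4T1 samples. In both tissues of the 4T1 group, the library with the lowest leukocyte sum had the lowest Pi16 and that with the highest sum the highest Pi16. Among the 4T07 tumors, tumor 31 had the highest leukocyte sum (4989.6 CPM) and the lowest Pi16 (79.9 CPM), close to the 81.5 CPM of tumor 32. Each of these orders rests on 3 libraries and is a description. Endothelium markers in spleens summed to 464 to 636 CPM in control, 261 to 284 CPM in 4T07 and 198 to 322 CPM in 4T1 samples, and spleen stroma markers to 253 to 279, 105 to 135 and 109.7 to 178 CPM. Their part in the Pi16 result and in the lower levels of the other genes was not tested.

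**Figure D5:**
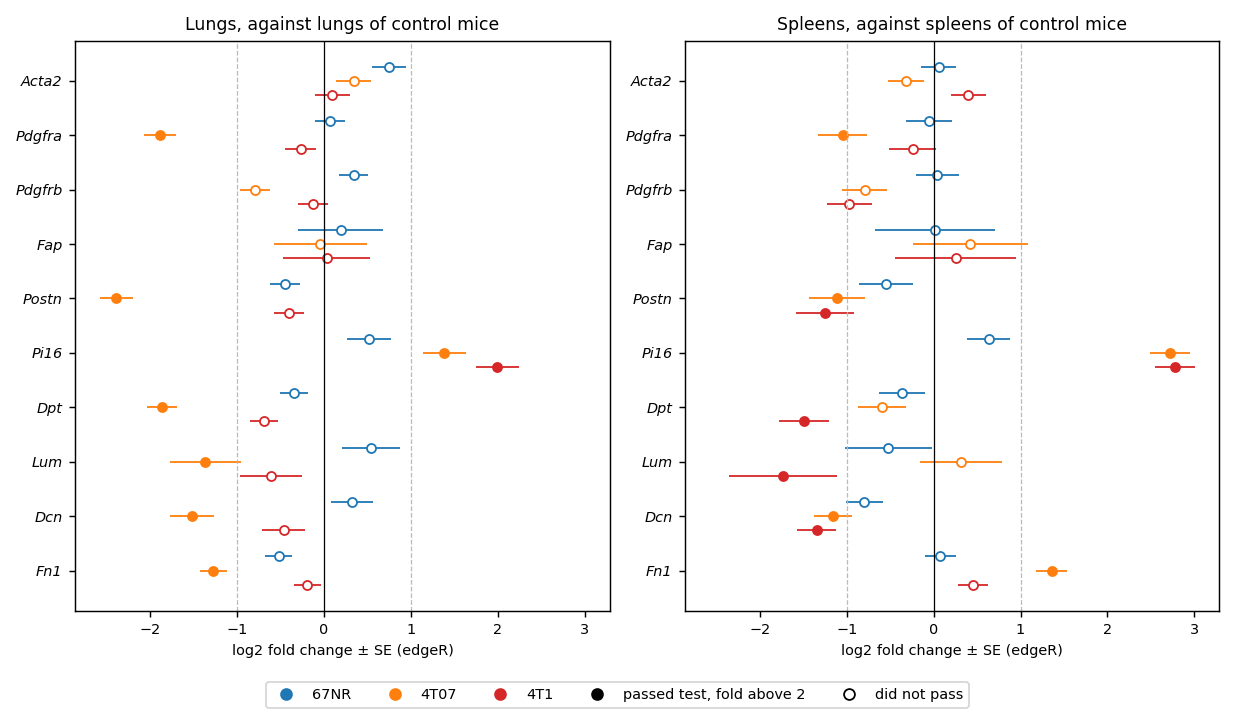
Log2 fold change ± SE (edgeR) of the 10 genes in lungs and spleens of tumor-bearing mice against those of control mice, 3 samples per group, filled where the adjusted p was under 0.10 and the fold above 2. Pi16 lies at 1.99 in 4T1 lungs and at 2.72 and 2.78 in 4T07 and 4T1 spleens, with Dcn and Postn below -1 in both of the last, and the orange lung points are the libraries labelled 4T07 lung.

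The difference between the metastatic and the invasive nonmetastatic line, log2(4T1/4T07), was compared between tissues. For Pi16 it was -0.58 in tumors, 0.35 in scaffolds and 0.06 in spleens, and no difference between tissues was called for it. These values are from the fit of each tissue, and the differences between tissues from the fit of all samples. For Pdgfra it was -0.97 in tumors and 0.74 in scaffolds, a difference of -1.67 ± 0.32 (adjusted p = 4.84e-04), the 1 gene of the 10 called between these tissues (background 4.33%). Between scaffolds and spleens 2 were called (background 1.05%), Dpt with a difference of 1.69 ± 0.35 (adjusted p = 0.00713) and Fn1 with 1.05 ± 0.27 (adjusted p = 0.0512). Dpt was higher in 4T1 than in 4T07 scaffolds in every sample and lower in every spleen. With lungs, 2 were called against scaffolds (background 12.3%) and 5 against spleens (background 17.1%), and both rest on the libraries labelled 4T07 lung.

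Across the 15 group means, the gene whose pattern was most like each of the 10 was sought among 12037 genes, by Pearson's r of log2(CPM + 1). The group means share tissues and library depth, so r is a description. Fap was most like Adam12 (r = 0.993), a metalloprotease of activated fibroblasts. Lum was most like Apod (0.992), Pdgfra most like Thbs3 (0.971), Postn most like Fkbp9 (0.980) and Dpt most like Cdh13 (0.974). Dcn was most like Gxylt2 (0.983), Fn1 most like Cxcl14 (0.983) and Pdgfrb most like Acbd5 (0.990). Acta2 and Pi16 had the least close neighbours, Igsf3 (0.908) and Gk (0.909). The next 2 for Acta2 were Pappa (0.893) and Zfp275 (0.873). Those for Pi16 were Ccr2 (0.894), a chemokine receptor of monocytes, and Saa3 (0.872), an acute phase protein.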

How the data were processed

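RNA was measured in 45 samples with 3' tag libraries with unique molecular identifiers (QuantSeq FWD). The authors deposited 1 table of raw counts per gene, not normalized. The submitters' processing notes name Trim Galore 0.5.0, STAR 2.6.0 and featureCounts. The genome build, the annotation and whether identifiers were collapsed are not given in the sources used here. The table held 55487 lines, of which 120 that repeated a symbol were summed, giving 55367 symbols. All 45 pairs of samples within groups were compared and 0 were identical.

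Counts were tested with the quasi-likelihood test of edgeR 4.0.16 in R 4.3.3, with TMM factors, all groups of a tissue in 1 fit, a filter that kept genes above 10 counts summed over the tissue, and Benjamini-Hochberg adjustment over all genes tested. A call needed an adjusted p under 0.05 (tumors) or 0.1 (elsewhere) and a fold change over 2. The 6 comparisons between tissues and the 4 differences between tissues used 1 fit of all 45 samples. Errors of log2 fold changes are SE with n = 3 per group. CPM values use library totals without TMM factors, so fitted folds differ from ratios of CPM. The paper counts the samples of a group as separate mice, while the labels tie no sample to an animal. Intervals cover counting error only.

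The 10 genes and the lists of related genes were chosen with earlier results of these data known. Named are the 10 genes, at most 3 genes per stromal list and comparison with the largest called changes, and for each of the 10 genes the most alike genes by Pearson's r over group means (genes of at least 5 CPM, pseudocount 1). Alternatives were DESeq2 1.42.0, its size factors in edgeR, library totals only, other filters, only the 2 compared groups, and leaving out each sample. Leaving out the 3 libraries labelled 4T07 lung was chosen after seeing the data.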

Additional observations from a re-analysis of the deposited data

Results flagged for a closer look

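The difference between 4T1 and 4T07 samples, log2(4T1/4T07), itself differed between tissues in 10 cases by the edgeR test of all samples, with 3 samples per group. For Pdgfra it was lower in tumors than in scaffolds by -1.67 (adjusted p = 4.84e-04). For Dpt and Fn1 it was higher in scaffolds than in spleens by 1.69 and 1.05 (adjusted p = 0.00713 and 0.0512). The other 7 include lungs and so rest on the libraries labelled 4T07 lung, which carried spleen stroma transcripts. Between scaffolds and lungs the differences were -1.42 for Postn and -1.04 for Fn1. Between lungs and spleens they were 2.26 for Postn, 2.20 for Dpt, 2.94 for Lum, 1.36 for Dcn and 2.10 for Fn1, the value of Lum resting on 1, 3 and 3 counts in the 4T1 spleens. Groups of 3 samples were not screened for single samples that stand apart.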

How the results depend on the processing

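Of 485 values of called genes under the alternatives, 481 kept their direction and call, 4 lost the call and 0 reversed. Of 987 values with 1 sample left out, 939 kept both, 48 lost the call and 0 reversed. Of 159 counts of called genes under the alternatives, 10 moved by more than 1.5 times. With library totals only, the count was 0 between 4T07 and control scaffolds, 4 between 4T07 and 67NR spleens, 5 between 4T1 and 67NR spleens and 2 for the difference of log2(4T1/4T07) between tumors and scaffolds, which was also 2 with DESeq2 and with its size factors. With at least 10 counts in every sample it was 1 between 4T1 and 67NR lungs and 0 between 4T1 and 4T07 spleens, the latter also 0 with only the 2 groups. The difference between scaffolds and spleens had 4 with DESeq2. The cause was not tested. With 1 sample left out, counts ran from 1 to 4 between 4T1 and 4T07 tumors, 1 to 2 between 4T07 and control scaffolds, 1 to 3 between 4T07 and 67NR scaffolds, 1 to 3 between 4T1 and 67NR lungs, 2 to 5 between 4T1 and 4T07 lungs, 3 to 6 between 4T07 and control spleens, 2 to 5 between 4T07 and 67NR spleens and 0 to 1 between 4T1 and 4T07 spleens. For the differences between tissues they ran from 1 to 4 (scaffolds and lungs), 1 to 2 (scaffolds and spleens), 5 to 8 (lungs and spleens) and 1 to 3 (tumors and scaffolds). Library totals shifted the median of all genes by -0.35 (4T1 against 67NR spleens) to 0.25 (4T07 against 67NR tumors), and changes there are relative to it. No paired analysis was possible because the labels do not link tissues of one mouse and no number is shared between groups. Depth limits Fap in lungs and spleens and Lum in spleens.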
